A study of Homo sapiens with 17 samples.

Results

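The enzymes that write and erase DNA methylation, together with the core of the Polycomb complex PRC2, were described in Ishikawa cells treated with progesterone (P4). The members of the group were set by name as 10 genes, DNMT1, DNMT3A, DNMT3B, UHRF1, TET1, TET2, TET3, EZH2, SUZ12 and EED, of 60662 genes in the count table, and every one of the 10 was found and had enough reads to be tested. Ishikawa is a human cell line from an endometrial adenocarcinoma that is used as a model of endometrial epithelium. RNA-seq was available for 17 libraries, all collected at 24 h. The comparisons used 11 of them: 3 control libraries from untreated cells in basal medium, 3 vehicle control libraries labelled as treated with Nap and 70% ethanol, 2 Nap only libraries, and 3 P4 treated libraries labelled as receiving Nap and progesterone. The sources used here do not say what Nap is, and the labels name ethanol for the vehicle control alone, so whether the P4 treated cultures also received ethanol is not stated there. All groups share 1 cell line grown in charcoal-stripped serum, which limits them as a model of tissue. The other 6 libraries came from cells given recombinant PSAT1 with or without P4, but the title of each names the opposite treatment to its column in the count table. They entered no comparison.

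Methyl groups on cytosine are copied onto new DNA by DNMT1, which UHRF1 brings to hemimethylated sites behind the replication fork. DNMT3A and DNMT3B place methyl groups on unmethylated DNA, and the TET dioxygenases oxidise methylcytosine as the opening step of its removal. PRC2 methylates histone H3 at lysine 27, a mark of silenced genes. EZH2 is its catalytic subunit, and EED and SUZ12 are core subunits without which EZH2 has little activity. In the endometrium, progesterone ends the proliferation that oestrogen drives and turns the epithelium to secretion, and UHRF1 and DNMT1 are among the genes whose transcripts accumulate in dividing cells.

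P4 treated cells held less UHRF1, TET1, EED, DNMT3A and DNMT1 transcript and more SUZ12 transcript than vehicle control cells. UHRF1 fell by far the most of the 10, by 70.9%. The 6 called genes, those with an adjusted p under 0.05, stood against 53.0% of all 16540 genes tested, so the members' share was near the background. In the higher direction 1 of 10 members was called, against 26.6% of all genes, and in the lower direction 5 of 10, against 26.5%. The P4 treated and vehicle control libraries did not overlap for 7 of 10 members, as for 59.9% of all genes. The median log2 fold change of the 10 was -0.12, against -0.013 over all genes tested, and the median absolute log2 fold change was 0.32, against 0.38.

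Counts per library ran from 4999521 (vehicle control replicate 1) to 19704493 (control replicate 2), and 20.2% to 27.1% of each library's counts fell on the mitochondrial ribosomal RNA MT-RNR2. Levels are given as CPM, counts relative to the library total scaled by the trimmed mean of M values (TMM), and levels between genes as RPKM, the CPM divided by the exon length in kilobases. Epithelial and endometrial markers were present in every library, with a summed level of 1257 to 1369 CPM in P4 treated and 1611 to 1684 CPM in vehicle control libraries, and 8 of the 10 were called between them, 6 lower (PGR -1.44 and PAX8 -0.68 among them) and 2 higher. Leukocyte and endothelial markers reached at most 1.70 and 1.76 CPM summed, and the endothelial marker CDH5 had no count. The stromal list summed to 148 to 156 CPM in P4 treated and 122 to 137 CPM in vehicle control libraries, but of its 5 tested genes 3 fell (COL1A1 by 0.44 on the log2 scale) and 1 rose (VIM, 0.75), with a median of -0.44. THY1, among those that fell, had enough reads only in vehicle control (mean 1.03 CPM, against 0.230 CPM in P4 treated libraries). Summed S phase and mitosis markers lay at 1704 to 1839 CPM in P4 treated libraries, below the 2870 to 3198 CPM of vehicle control libraries, and 16 of the 18 markers fell. Over all genes tested in that comparison, 26.6% were called higher and 26.5% lower. In bulk RNA, fewer cells of a kind and less RNA per cell cannot be told apart, and the part of these marker shifts in the results on UHRF1, DNMT1 and the other members was not tested.

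UHRF1 (ENSG00000276043.5, chr19:4903080-4962154, plus strand, GRCh38) encodes the factor that reads hemimethylated CpG sites and recruits DNMT1. Its level was 34.5, 42.8 and 35.8 CPM in the 3 vehicle control libraries and 12.4, 10.8 and 10.2 CPM in the P4 treated libraries. Untreated controls gave 33.4, 31.1 and 26.3 CPM and the Nap only libraries 29.05 and 33.1 CPM. Every P4 treated library was far below every other labelled library. The counts behind these values were 128 to 135 reads in the P4 treated libraries and 185 to 581 in vehicle control. The log2 fold change between P4 treated and vehicle control was -1.78 ± 0.12 (SE, n = 3 in each group, adjusted p = 2.12e-07), or 0.291 of the vehicle level.

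RefSeq lists several starts for UHRF1, and the 250 bases upstream of the 2 starts that carry a match to an E2F motif are shown because UHRF1 moved most and E2F factors are the best known regulators of S phase genes. The bases are from GRCh38.p14, plus strand, with the match in capitals. The motif searched was TTTCCCGC, TTTCGCGC, TTTGCCGC or TTTGGCGC on either strand.
UHRF1, chr19:4909251-4909500: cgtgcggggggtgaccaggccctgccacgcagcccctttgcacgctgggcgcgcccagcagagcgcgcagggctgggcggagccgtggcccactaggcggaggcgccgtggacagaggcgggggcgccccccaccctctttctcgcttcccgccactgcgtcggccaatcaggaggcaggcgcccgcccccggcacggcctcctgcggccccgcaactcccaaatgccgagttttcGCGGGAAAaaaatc
UHRF1, chr19:4909894-4910143: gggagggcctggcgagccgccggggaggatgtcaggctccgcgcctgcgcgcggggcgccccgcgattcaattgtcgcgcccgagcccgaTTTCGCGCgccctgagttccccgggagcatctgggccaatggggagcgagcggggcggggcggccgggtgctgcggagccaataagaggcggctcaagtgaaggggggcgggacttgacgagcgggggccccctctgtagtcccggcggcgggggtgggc

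The same letters occurred near the starts of 3 other members, shown as 30-base stretches on the gene's own strand so that their place can be compared with those of UHRF1.
DNMT1, chr19:10194937-10194966, minus strand: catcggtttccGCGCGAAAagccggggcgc
EZH2, chr7:148884272-148884301, minus strand: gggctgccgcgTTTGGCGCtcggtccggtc
SUZ12, chr17:31936807-31936836, plus strand: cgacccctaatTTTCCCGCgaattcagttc
Over the RefSeq windows of 300 bases around each start (22 windows for the 10 members), 5 windows of 4 members held an E2F match, while 3.31% of all 35116 windows did. These shares are not like for like. The 5 windows were 68.3% to 76.0% G and C, against a median of 58.7% over all windows, and the searched letters are themselves rich in G and C. Windows of 1 gene can also overlap. Whether members hold more matches than windows of the same base content was not tested. The genes with a match did not share a direction: UHRF1 and DNMT1 fell with P4, SUZ12 rose and EZH2 was not called. The CCAAT box (CCAAT, either strand) was in 9 of the 22 windows, of 7 members, and in 34.6% of all windows. The palindromic hormone response element GNACANNNTGTNC, the kind of letters that progesterone receptor can bind, was in none of the members' windows and in 0.390% of all windows. A match describes letters alone, and no match says nothing about binding elsewhere.

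DNMT1 (ENSG00000130816.16, chr19:10133345-10231286, minus strand) is the maintenance methyltransferase. The vehicle control libraries had 214, 233 and 234 CPM, and the P4 treated libraries 172, 213 and 189 CPM. The highest P4 treated library came within 1 CPM of the lowest vehicle control library, so the groups separated only just. The log2 fold change was -0.26 ± 0.08 (SE, adjusted p = 0.0150), which is 0.837 of the vehicle level. Without vehicle control replicate 2, vehicle control replicate 3 or P4 treated replicate 3 the gene was no longer called (adjusted p = 0.0626, 0.0656 and 0.0775). S1PR2, which overlaps DNMT1 on the same strand, held 4.36 to 6.56 CPM in the labelled libraries.

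DNMT3A (ENSG00000119772.16, chr2:25227855-25342590, minus strand), one of the de novo methyltransferases, measured 83.3, 96.2 and 92.8 CPM in vehicle control and 69.9, 66.4 and 70.4 CPM in P4 treated libraries. The P4 treated libraries were tightly grouped and lay below all libraries of the 3 other groups. The log2 fold change was -0.41 ± 0.07 (SE, adjusted p = 0.000416). DNMT3B (ENSG00000088305.18, chr20:32762385-32809356, plus strand), its paralogue, gave 16.4, 18.4 and 16.4 CPM in vehicle control and 18.1, 20.7 and 16.5 CPM in P4 treated libraries. These groups overlapped, and with a log2 fold change of 0.09 ± 0.12 (SE, adjusted p = 0.519) the 95% interval of the difference ran from -0.14 to 0.32. The shift of DNMT3A thus had no called counterpart in DNMT3B, although the difference between the paralogues was not itself tested.

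**Figure D1:**
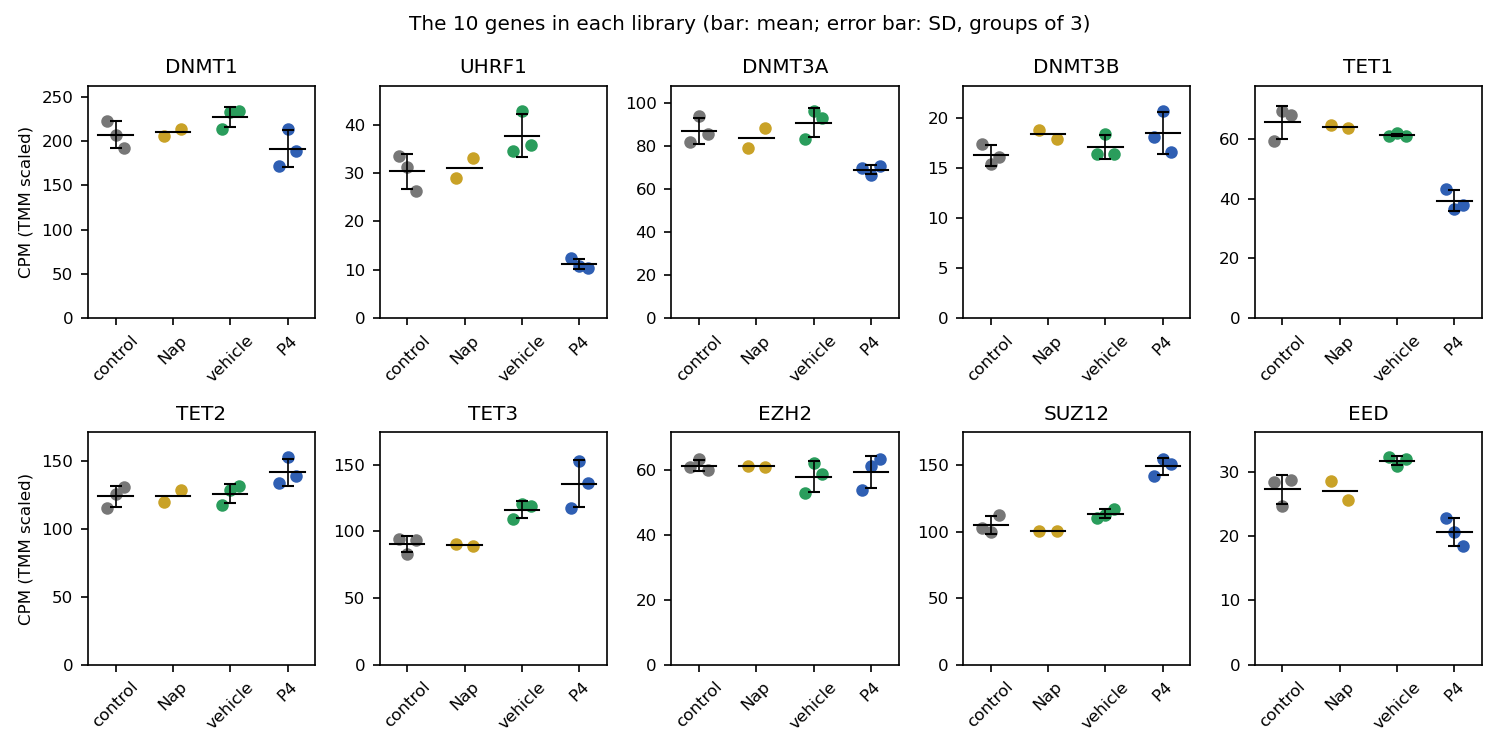
Level of each of the 10 genes in CPM (vertical axes, each starting at 0) in every labelled library, with the mean as a bar and the SD for groups of 3. UHRF1 in P4 treated libraries (10.2 to 12.4 CPM) stands clear of all other libraries, TET1, DNMT3A and EED are also lowest there, SUZ12 is highest there, and EZH2 and DNMT3B overlap across groups.

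TET1 fell with P4, while TET2 and TET3 had higher means that were not called with these 6 libraries and the filter on low counts. TET1 (ENSG00000138336.9, chr10:68560656-68694482, plus strand) stood at 61.1, 61.9 and 61.0 CPM in vehicle control and at 43.4, 36.7 and 38.0 CPM in P4 treated libraries, with a log2 fold change of -0.65 ± 0.08 (SE, adjusted p = 4.40e-05). Control (59.2 to 69.4 CPM) and Nap only (63.7 and 64.6 CPM) libraries were all above the P4 treated range. TET2 (ENSG00000168769.13, chr4:105145875-105279816, plus strand), a gene often mutated in myeloid leukaemia, had 118, 129 and 132 CPM in vehicle control and 134, 153 and 139 CPM in P4 treated libraries. Those groups did not overlap, yet the log2 fold change of 0.16 ± 0.07 (SE) was not called (adjusted p = 0.0791). TET3 (ENSG00000187605.15, chr2:73986404-74108176, plus strand), the TET enzyme best known from the zygote, read 109, 121 and 119 CPM in vehicle control against 118, 153 and 136 CPM in P4 treated libraries. P4 treated replicate 1 lay inside the vehicle range and the other P4 treated libraries above it. The log2 fold change was 0.21 ± 0.09 (SE, adjusted p = 0.0595). Without that library TET3 was called (log2 fold change 0.30, adjusted p = 0.000424), as was TET2 (0.20, adjusted p = 0.0108). TET3 was also called with no filter on low counts (adjusted p = 0.0234) and in the fit of all 4 groups (adjusted p = 0.0343).

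Of the core subunits of PRC2, SUZ12 rose, EED fell and EZH2 was not called. EZH2 (ENSG00000106462.10, chr7:148807383-148884321, minus strand) was at 52.9, 62.4 and 59.0 CPM in vehicle control and 54.0, 61.5 and 63.4 CPM in P4 treated libraries, almost the same range. Its log2 fold change was 0.022 ± 0.083 (SE, adjusted p = 0.838), with an interval from -0.14 to 0.19. SUZ12 (ENSG00000178691.11, chr17:31937018-32001045, plus strand) rose from 110.1, 113 and 117 CPM to 142, 154 and 151 CPM, with no overlap and a log2 fold change of 0.39 ± 0.06 (SE, adjusted p = 0.000251). EED (ENSG00000074266.20, chr11:86244544-86278813, plus strand), which binds the methylated histone, fell from 32.2, 30.9 and 32.1 CPM to 22.7, 20.6 and 18.4 CPM. Every P4 treated library was below every other labelled library, with a log2 fold change of -0.63 ± 0.10 (SE, adjusted p = 0.000248). SUZ12 has a near-identical copy, SUZ12P1, and reads that matched both would not have been counted. SUZ12P1 held 15.1 to 16.3 CPM in P4 treated and 17.4 to 23.3 CPM in vehicle control libraries, so its range was lower where that of SUZ12 was higher. For EZH2 the processed copy EZH2P1 held 0.987 to 2.85 CPM over the labelled libraries.

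**Figure D2:**
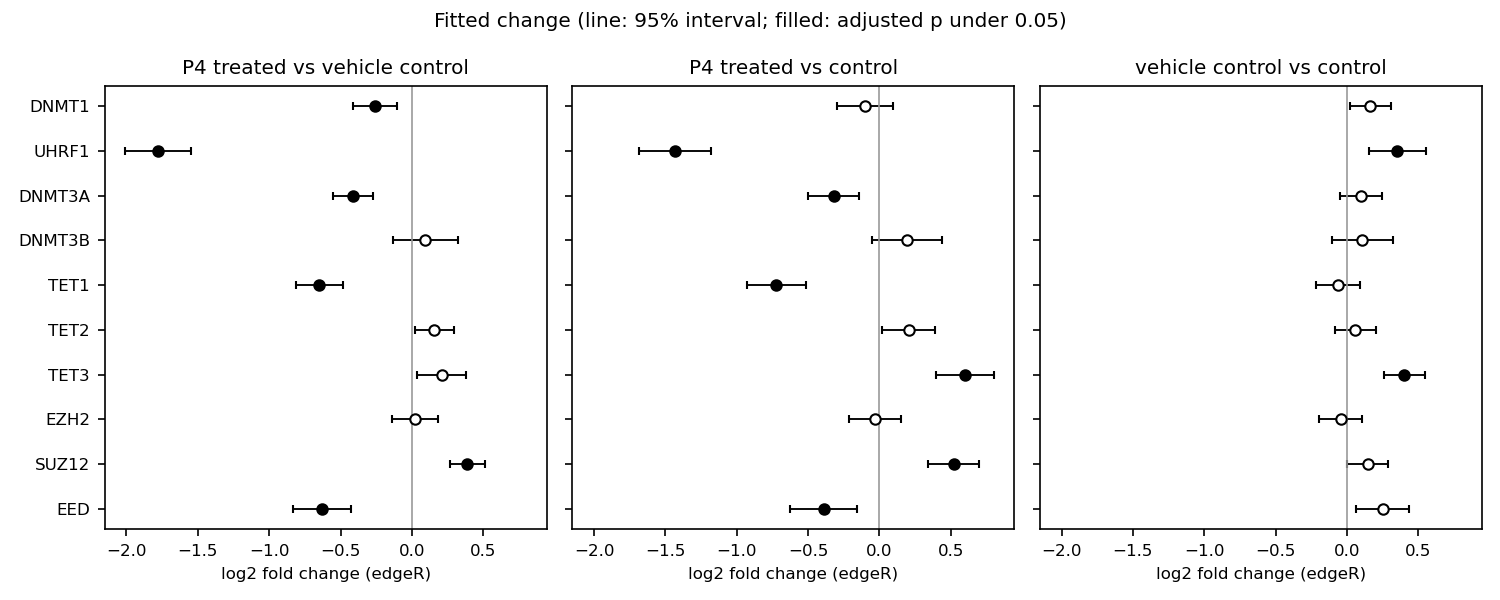
Fitted log2 fold change of each gene (horizontal axes) in 3 comparisons, with a 95% interval as a line and a filled point where the adjusted p was under 0.05. UHRF1 is leftmost with P4 against vehicle control (-1.78) and against control (-1.43), and TET3 and UHRF1 are the filled points for vehicle control against control.

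Compared per length of exon, DNMT1 was the most abundant of the 10 transcripts in vehicle control cells with 23.2 ± 1.16 RPKM (SD, n = 3), followed by SUZ12 (17.3 ± 0.519) and EZH2 (12.8 ± 1.06), none of them overlapping its neighbour. TET3 (9.48 ± 0.509) came next. TET2 (7.65), DNMT3A (7.55) and UHRF1 (7.33) could not be ordered, since neighbouring ranges overlapped, and TET1 (6.60), EED (4.52) and DNMT3B (3.69) followed apart from each other. In P4 treated cells SUZ12 (22.8 ± 0.981) and DNMT1 (19.5 ± 2.13) had overlapping ranges at the head of the order. UHRF1 moved to its foot with 2.17 ± 0.217 RPKM, below EED (2.94 ± 0.305) without overlap. Exon lengths joined all isoforms of a gene, so an order between genes with different isoform use is approximate.

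Ratios taken within a library do not depend on how libraries are scaled, and with 3 libraries in each group the exact permutation test cannot give a two-sided p under 0.1. UHRF1 to DNMT1, by RPKM, was 0.307, 0.350 and 0.291 in vehicle control and 0.137, 0.0965 and 0.103 in P4 treated libraries. The ratio in P4 treated cells was 0.353 of that in vehicle control cells (log2 difference -1.50 ± 0.18 SE, exact permutation p = 0.1). Every P4 treated library lay below every vehicle control library in this ratio. DNMT1 relative to DNMT3A plus DNMT3B showed no such separation, at 2.09, 1.99 and 2.12 in vehicle control against 1.80, 2.18 and 2.05 in P4 treated libraries (log2 difference -0.044 ± 0.085 SE, exact permutation p = 0.8).

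TET3 relative to TET1 plus TET2 was 0.648, 0.680 and 0.666 in vehicle control and 0.751, 0.943 and 0.886 in P4 treated libraries, a log2 difference of 0.37 ± 0.10 (SE, exact permutation p = 0.1). The makeup of the TET transcripts thus differed in every P4 treated library from every vehicle control library. It also differed between vehicle control and untreated control without overlap (log2 difference 0.40 ± 0.11 SE, exact permutation p = 0.1). Between P4 treated and untreated control the log2 difference was 0.76 ± 0.14 (SE, exact permutation p = 0.1). How these differences relate to each other was not tested. For PRC2, EZH2 was set against EZH1, its less active paralogue that prevails in resting cells. That ratio was 3.99, 4.82 and 4.28 in vehicle control and 2.54, 2.78 and 2.73 in P4 treated libraries, or 0.616 of the vehicle value (log2 difference -0.70 ± 0.09 SE, exact permutation p = 0.1). EZH1 rose, as given below, while EZH2 was not called. SUZ12 to EED, a ratio chosen after their values were seen, was 3.66 to 3.91 in vehicle control and 6.69 to 8.75 in P4 treated libraries, or 2.03 times as high.

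**Figure D3:**
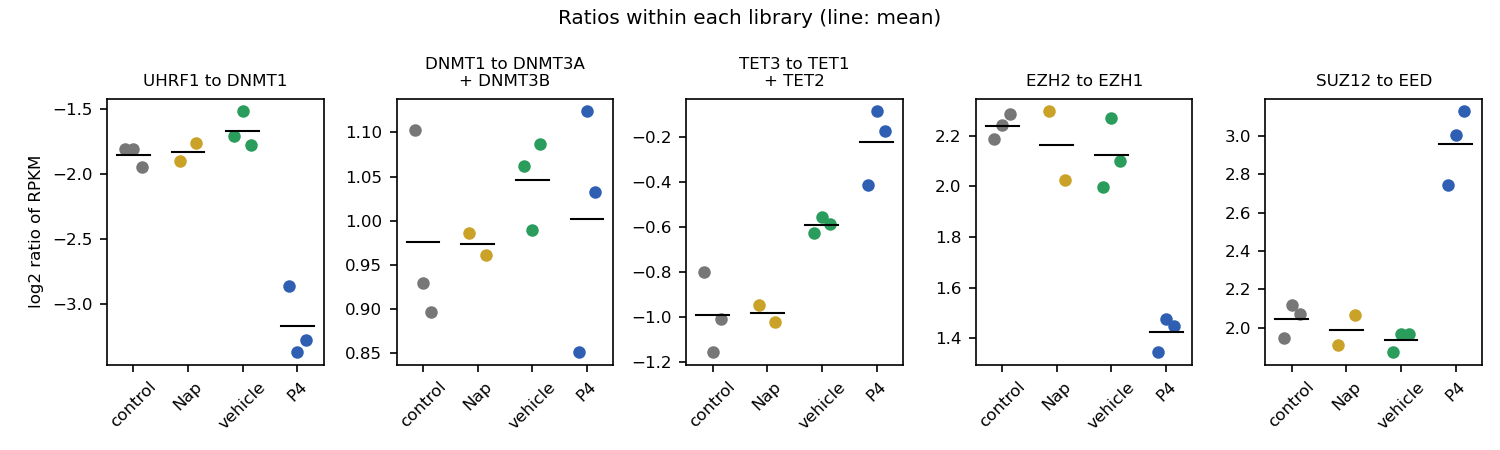
Log2 of the ratio of RPKM values within each labelled library for 5 pairs or groups of genes, with the mean as a line and an axis of its own for each panel. P4 treated libraries lie apart from the other 3 groups for UHRF1 to DNMT1, TET3 to TET1 plus TET2, EZH2 to EZH1 and SUZ12 to EED, and overlap them for DNMT1 to DNMT3A plus DNMT3B, whose axis spans the narrowest range. For TET3 to TET1 plus TET2, vehicle control libraries also lie above all control and Nap only libraries.

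Against untreated control cells, which share the P4 treated libraries with the comparison above, P4 treated cells again held less UHRF1, TET1, EED and DNMT3A and more SUZ12, and TET3 was called as well. The 6 called members stood against 54.8% of 16620 genes, the 2 higher against 26.8% and the 4 lower against 28.0%, and 7 of 10 did not overlap, against 61.2%. UHRF1 had a log2 fold change of -1.43 ± 0.13 (SE, adjusted p = 5.76e-08), TET1 of -0.72 ± 0.11 (SE) and DNMT3A of -0.32 ± 0.09 (SE, adjusted p = 0.00662). TET3 rose from 94.4, 83.3 and 93.2 CPM in control libraries to the 118 to 153 CPM given above, a log2 fold change of 0.60 ± 0.10 (SE, adjusted p = 9.41e-05).

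SUZ12, at 102, 100.0 and 112 CPM in control libraries, differed by 0.52 ± 0.09 on the log2 scale (SE, adjusted p = 0.000116). EED, at 28.4, 24.7 and 28.6 CPM in control, differed by -0.39 ± 0.12 (SE, adjusted p = 0.0101), a call that was lost without P4 treated replicate 3 (-0.30, adjusted p = 0.0976). DNMT1 in the control libraries (222, 207 and 193 CPM) overlapped the P4 treated libraries, and its log2 fold change of -0.10 ± 0.10 (SE, adjusted p = 0.398) was not called. EZH2 (-0.030), DNMT3B (0.19) and TET2 (0.20, adjusted p = 0.0734) were not called either. For TET2 the groups did not overlap. It was called in the fit of all 4 groups (adjusted p = 0.0143) and without P4 treated replicate 1 (adjusted p = 0.0323).

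Vehicle control cells also differed from untreated cells in some of these genes. Between vehicle control and control, TET3 and UHRF1 were called, both higher in vehicle control, against 22.6% of 16673 genes called, 11.9% called higher and 10.7% called lower. The groups did not overlap for 3 members (TET3, UHRF1 and EED), against 39.4% of genes. TET3 rose by 0.40 ± 0.07 on the log2 scale (SE, adjusted p = 0.000588), from 83.3 to 94.4 CPM in control to 109 to 121 CPM in vehicle control. UHRF1 rose by 0.35 ± 0.10 (SE, adjusted p = 0.0156), a direction opposite to that of P4 against vehicle control, although both comparisons rest on the same vehicle control libraries. That call was lost without control replicate 3 (adjusted p = 0.0699) or vehicle control replicate 2 (adjusted p = 0.171). EED stood at 0.25 ± 0.09 (SE, adjusted p = 0.0579) and DNMT1 at 0.16 ± 0.07 (SE, adjusted p = 0.106).

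The 2 Nap only libraries allow the vehicle to be split in part, since their labels do not name ethanol. P4 treated against Nap only called 6 members (TET3 and SUZ12 higher, UHRF1, TET1, EED and DNMT3A lower), against 49.7% of 16987 genes, 24.8% higher and 24.9% lower. UHRF1 had a log2 fold change of -1.48 ± 0.13 (SE, adjusted p = 6.64e-06), TET1 of -0.70 ± 0.10 (SE, adjusted p = 0.000217) and SUZ12 of 0.57 ± 0.08 (SE, adjusted p = 0.000196). The calls of EED (-0.39, adjusted p = 0.0236) and DNMT3A (-0.28, adjusted p = 0.0245) were not kept in every refit. DESeq2 called neither (adjusted p = 0.0506 and 0.0551). EED lost its call without either Nap only replicate or without P4 treated replicate 3 (adjusted p = 0.181, 0.0660 and 0.137), and DNMT3A without Nap only replicate 2 or P4 treated replicate 3 (adjusted p = 0.247 and 0.0963).

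Vehicle control against Nap only, the groups that differ by ethanol in their labels, called TET3, UHRF1, SUZ12 and EED, each higher in vehicle control, against 23.8% of 16935 genes, 12.7% higher and 11.2% lower. TET3 was at 90.7 and 88.8 CPM in the Nap only libraries, with a log2 fold change of 0.41 ± 0.06 (SE, adjusted p = 5.80e-05). UHRF1 (0.32, adjusted p = 0.0198), SUZ12 (0.20, adjusted p = 0.0155) and EED (0.25, adjusted p = 0.0480) were less firm. DESeq2 called none of them (adjusted p = 0.0797, 0.0614 and 0.176), nor did the fit of all 4 groups (adjusted p = 0.0997, 0.122 and 0.164). UHRF1 also lost its call without vehicle control replicate 2 (adjusted p = 0.204). SUZ12 also lost its call with no filter, with the replicate block and without vehicle control replicate 2 or 3. EED lost its call in every refit that kept all Nap only libraries, among them those with other normalizations and filters. TET3 thus lay at 83.3 to 94.4 CPM in control and Nap only libraries and at 109 to 153 CPM in vehicle control and P4 treated libraries.

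Partners of the maintenance enzymes were followed in a list of 9 genes, of which 8 were tested with P4 against vehicle control. Of these, 3 rose and 3 fell (median log2 fold change 0.05, against -0.01 over all genes). Over all genes tested, 26.6% were called higher and 26.5% lower, and the counts of this list and those below stand against these shares. HELLS, a chromatin remodeller needed for DNA methylation, fell from 192 ± 16.7 to 94.6 ± 5.96 CPM (SD, n = 3, log2 fold change -1.02, adjusted p = 1.04e-06). PCNA, the replication clamp that binds DNMT1, fell by 0.99 on the log2 scale (adjusted p = 1.73e-06). UHRF2, the paralogue of UHRF1, rose from 78.7 ± 1.89 to 126 ± 18.1 CPM (log2 fold change 0.67, adjusted p = 7.70e-05), opposite to UHRF1, and USP7, a deubiquitinase that binds UHRF1 and DNMT1, rose by 0.41.

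Of 8 readers of methylated CpG, all tested, 3 rose and 2 fell (median 0.10). MBD3 (-0.68) fell, and MBD4 (0.40) and ZBTB4 (0.30) rose, though 3 rather than 5 of the list were called without vehicle control replicate 3 or P4 treated replicate 3. Of 16 genes of methylcytosine oxidation and repair that act beside the TET enzymes, 4 rose and 7 fell (median -0.23). IDH1, which makes the cofactor of TET enzymes, rose from 144 ± 3.39 to 301 ± 9.87 CPM (log2 fold change 1.05, adjusted p = 5.38e-08). GADD45A, a stress-induced gene linked to DNA repair, rose from 4.75 ± 1.05 to 53.5 ± 12.6 CPM (3.42, adjusted p = 9.18e-08), while CXXC5 (-0.61) and the DNA glycosylase NEIL3 (-0.59) fell. Of 8 genes listed under supply of the methyl donor, 3 rose and 2 fell (median 0.05). The 2 that fell were MAT2A (-0.69), which makes S-adenosylmethionine, and AHCY (-0.48), which clears its product. The AHCY-like genes AHCYL1 (0.80) and AHCYL2 (0.48) were among those that rose, and whether they act in this supply was not tested.

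The partners of PRC2 numbered 11, of which 10 were tested, 3 rose and 2 fell (median 0.00). EZH1 rose from 20.6 ± 0.644 to 34.3 ± 1.53 CPM (log2 fold change 0.73, adjusted p = 2.35e-05) and PHF1, a Polycomb-like protein that helps PRC2 bind chromatin, from 19.1 ± 0.161 to 38.9 ± 7.72 CPM (1.02, adjusted p = 4.14e-05). The histone-binding subunits RBBP4 (-0.47) and RBBP7 (-0.76) fell, as EED did. Among 25 genes of PRC1, the other main Polycomb complex, 10 rose and 7 fell (median -0.01). PCGF5 rose by 0.74, and CBX6 (-0.93) and BCORL1 (-1.02) fell. Of 7 genes that remove the marks of PRC2 and PRC1, 2 rose and 1 fell (median 0.19). The H3K27 demethylase gene KDM6A rose by 0.32 (adjusted p = 0.0113), a call lost without vehicle control replicate 2 or 3 (adjusted p = 0.0531 and 0.0544), and KDM6B had 0.55 ± 0.22 (SE, adjusted p = 0.0587). KDM6B was called by DESeq2 (adjusted p = 0.0167), with no filter (adjusted p = 0.00011) and without P4 treated replicate 1 or 3 (adjusted p = 0.0163 and 0.0403), and without P4 treated replicate 2 its log2 fold change was 0.23. ASXL3 fell by 1.57 and USP16 rose by 0.28, and 5 of the 7 were called without P4 treated replicate 1.

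**Figure D4:**
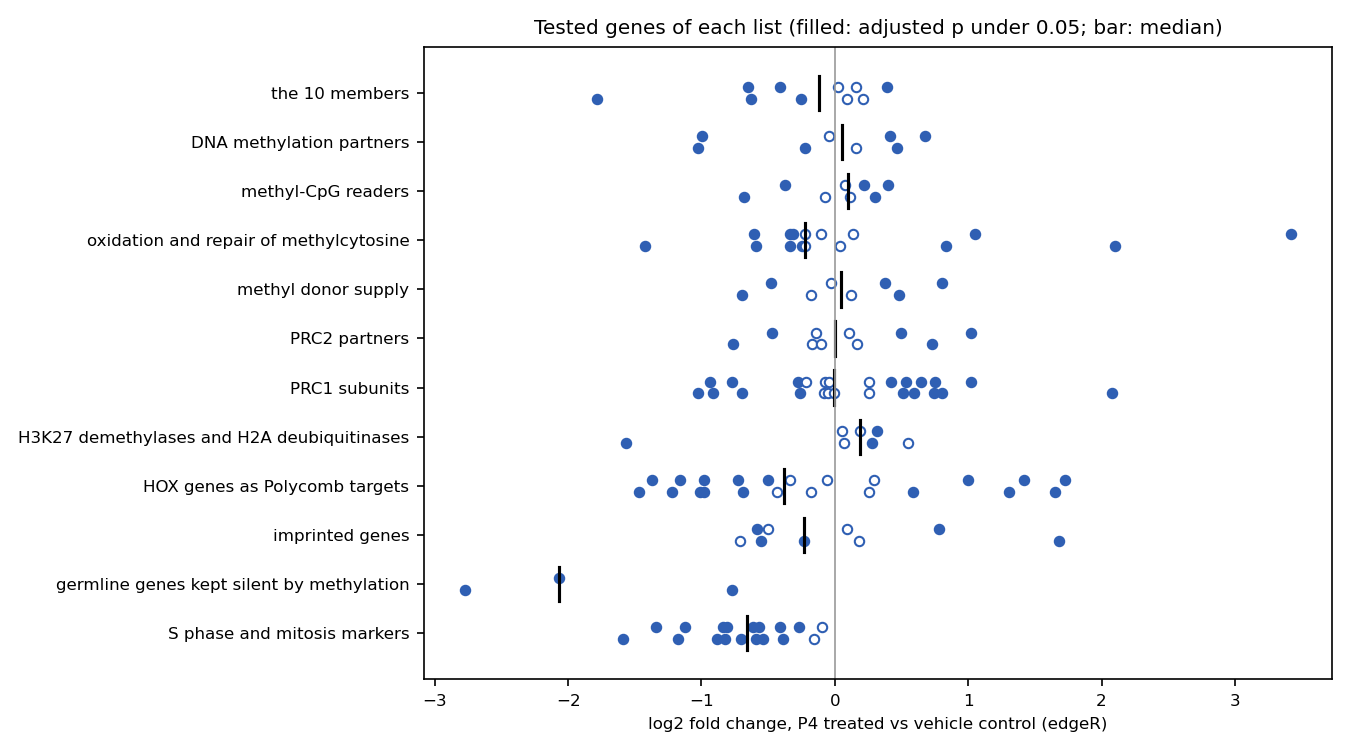
Log2 fold change of P4 treated against vehicle control (horizontal axis) for each tested gene of the 10 members and of 11 lists, filled where the adjusted p was under 0.05, with the list's median as a bar. The lists of DNA methylation and Polycomb genes have medians between -0.23 and 0.19 with genes on both sides, and the S phase and mitosis markers lie below 0 with a median of -0.66.

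Genes that DNA methylation or Polycomb hold silent in many tissues were counted as well, beside 26.6% of all genes called higher and 26.5% called lower. Of 34 HOX genes, textbook targets of Polycomb, 22 were tested, 6 rose and 10 fell (median -0.38). HOXD3 (1.73) and HOXD8 (1.31) rose, and HOXA5 (-1.47) and HOXA7 (-0.98) fell. Of 16 imprinted genes 9 were tested, with 2 higher (GRB10 1.68, SGCE 0.78) and 3 lower (including KCNQ1OT1 -0.58 and PLAGL1 -0.55, median -0.23). Of 15 germline genes that promoter methylation keeps silent in somatic cells, 12 did not have enough reads to be tested. The 3 that did (TDRD1, TEX14 and STK31) were at low levels and lower in P4 treated libraries. TEX14 was at 2.42 ± 0.483 CPM in vehicle control and 0.614 ± 0.322 CPM in P4 treated libraries. TDRD1 was at 1.21 to 1.55 CPM and 0.152 to 0.284 CPM in the same order. At such levels a gene enters the test through the group where it is higher. The shared direction therefore cannot be read as a result on the list. DNA methylation and histone marks themselves were not measured.

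Among 12548 protein-coding genes, those whose centred profile over the 11 labelled libraries was most like that of UHRF1 were ESPN, which encodes the actin-bundling protein espin, with a root mean square difference of 0.0843 on the log2 scale, and HNRNPM, an RNA-binding protein, with 0.112. Among the members the closest profiles were TET2 and EZH2 (0.120), DNMT3B and TET2 (0.121) and TET3 and SUZ12 (0.121), while the member closest to UHRF1 was TET1 (0.430).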

How the data were processed

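The authors trimmed the single-end reads of a stranded total RNA kit with Cutadapt and the FASTX quality filter, kept the reads that Subread placed uniquely, and had featureCounts assign them to genes against GENCODE 31. Versions and the strand setting are not given in the sources used here. The deposited values are raw read counts, so precision follows the counts of each gene.

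Genes were named from GENCODE 29 (GRCh38), where 43928 of 60662 IDs had the same version, 2054 more were named from a table of IDs and symbols, and 66 had no name. All 10 members matched. Promoter bases came from RefSeq (GRCh38.p14).

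Each comparison used the libraries of its 2 groups in edgeR 4.0.16 (R 4.3.3): filterByExpr with a minimum count of 10, TMM, the robust quasi-likelihood test, two-sided, and Benjamini-Hochberg adjustment over all genes tested, called at an adjusted p under 0.05. DESeq2 1.42.0, other normalizations and filters, 1 fit of all 4 groups, the replicate number as a block and leaving out each library were alternatives. Scripts were tested on simulated data. Displayed CPM used TMM over all 17 libraries, and profiles used log2 of CPM plus 0.5. Ratios used scipy 1.17.1.

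Members and gene lists were chosen with earlier results of these data known. Text names all members. In each list it draws on the 2 genes called most firmly (by adjusted p) upward and downward with P4 against vehicle control, adding EZH1, HELLS, KDM6A and KDM6B whatever their result, and on the 2 profiles nearest to the member that moved most. Some genes that this rule selects are not reported here. STK31 was named after its values were seen. Libraries of 1 group are labelled as biological replicates, and their counts differed by more than sampling noise (chi-square per degree of freedom 1.48 to 18.3). Deviations of same-numbered libraries correlated weakly (-0.0915 to 0.0745), a check that cannot exclude pairing. The 6 libraries with contradicting labels were not compared.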

Additional observations from a re-analysis of the deposited data

Results flagged for a closer look

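In the 6 libraries whose labels disagree, signal outside the comparisons above stood above the untreated controls for TET2, TET3 and SUZ12. In the 3 columns named PSAT1_P4, whose titles name PSAT1 without P4, the lowest level was 136.8 CPM for TET2 (controls 116 to 131 CPM), 119 CPM for TET3 (controls 83.3 to 94.4 CPM) and 142 CPM for SUZ12 (controls 100.0 to 112 CPM). The flag looked only for members above the controls, and 4 members (UHRF1, DNMT3A, TET1 and EED) lay below them in these columns. The labelled P4 treated libraries were also above the controls for TET2 (134 to 153 CPM), TET3 (118 to 153 CPM) and SUZ12 (142 to 154 CPM). The share of all genes above the controls in these columns was not counted. Differences in these columns were not tested, because the treatment of each library is not settled by its labels. No group held 4 to 10 libraries, so single outlying libraries were not searched for.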

How the results depend on the processing

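With P4 against vehicle control, UHRF1, TET1, EED, DNMT3A and SUZ12 kept their direction and call in every alternative run, and the number of members called ran from 5 to 8 when each library was left out (all genes 7083 to 9953) and was 6 or 7 in the others. With P4 against control it ran from 5 to 7 (all genes 7617 to 9709), vehicle control against control from 1 to 2 (all genes 1908 to 3995), P4 against Nap only from 4 to 7 (all genes 5502 to 9719) and vehicle control against Nap only from 1 to 4 (all genes 2355 to 3803). Without vehicle control replicate 2 or 3, vehicle control against control called 2038 and 1908 genes in place of 3763 and vehicle control against Nap only 2355 and 2471 in place of 4034. Without Nap only replicate 1 or 2, P4 against Nap only called 5606 and 5502 genes in place of 8446. Of the 5 comparisons, vehicle control against Nap only was the least stable: DESeq2 called 1 member and 2267 genes, the fit of all 4 groups 1 member and 1912 genes, no filter 2 members and the replicate block 2 members, and the cause was not tested.

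Upper-quartile scaling moved the median of all genes with P4 against vehicle control from -0.01 to -0.10 and its split from 4397 higher and 4377 lower to 3603 and 5244, and with P4 against control to 3967 and 5192. The fit of all 4 groups moved no member count of the P4 comparisons by more than 1. Deviations of same-numbered libraries from their group means had weak correlations, from -0.0449 to 0.0460 for P4 against vehicle control. They ran from -0.0915 to -0.0420 for P4 against control and from 0.0471 to 0.0745 for vehicle control against Nap only. For vehicle control against control they ran from -0.0031 to 0.0727, and for P4 against Nap only from -0.0900 to -0.0543. Deviations from means of 2 or 3 libraries sum to 0, so this check cannot exclude pairing. As a block, the replicate number gave 7, 6, 3, 4 and 2 members called in the 5 comparisons in the order above, with 8934, 8754, 4360, 6638 and 3537 genes. With the block, TET3 (adjusted p = 0.0262) and KDM6B (adjusted p = 0.00724) were called with P4 against vehicle control, and EED (adjusted p = 0.183) and DNMT3A (adjusted p = 0.133) were not called with P4 against Nap only.

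Values that changed sign were all small and not called. EZH2 went to -0.066 with upper-quartile scaling, and over the left-out libraries its log2 fold change ran from -0.015 to 0.086 with P4 against vehicle control, from -0.062 to 0.044 against control, from -0.068 to 0.037 against Nap only, from -0.095 to 0.00031 for vehicle control against control and from -0.088 to 0.0036 for vehicle control against Nap only. DNMT3B with P4 against Nap only went to -0.067 with upper-quartile scaling and ran from -0.077 to 0.098, and TET2 for vehicle control against Nap only ran from -0.0043 to 0.087. The log2 difference of DNMT1 to DNMT3A plus DNMT3B was 0.050 with CPM in place of RPKM, and ran from -0.10 to 0.032 against vehicle control and from -0.035 to 0.10 against control. Counts of called list genes stayed within 1.5 times in 371 of 390 refits. Vehicle control replicate 1 has the fewest counts, and without it 6 members were still called with P4.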

Other observations

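The 6 libraries with contradicting labels are given here one by one. UHRF1 was at 30.9, 35.9 and 36.6 CPM in the columns named PSAT1, whose titles name PSAT1 with P4, and at 12.4, 12.05 and 8.38 CPM in the columns named PSAT1_P4, whose titles name PSAT1 alone. The labelled P4 treated libraries had 10.2 to 12.4 CPM and the controls 26.3 to 33.4 CPM. TET1 was at 60.7, 69.0 and 63.4 CPM in the columns named PSAT1 and at 39.3, 37.4 and 41.3 CPM in those named PSAT1_P4. EED was at 29.6, 28.3 and 28.1 CPM and at 21.2, 19.5 and 24.0 CPM in the same order, and DNMT3A at 79.6, 91.1 and 90.3 CPM and at 63.4, 65.7 and 71.3 CPM. SUZ12 was at 94.3, 92.3 and 102 CPM in the columns named PSAT1 and at 142, 145 and 156 CPM in those named PSAT1_P4, and TET3 at 92.2, 95.3 and 101 CPM and at 119, 144 and 155 CPM. For each of these genes the values fell into 2 clusters that followed the column names. Of the 10 members, 9 overlapped the controls in the columns named PSAT1, and EZH2 was below them (56.6 to 60.10 against 60.15 to 63.46 CPM). In the columns named PSAT1_P4, 3 were above and 4 below the controls. The share of all genes outside the controls in these columns was not counted. Between the labelled P4 treated and control libraries, 61.2% of all genes did not overlap.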
